A study of Mus musculus with 12 samples.

Results

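Chromatin accessibility in Olig2+ brain nuclei was compared between mice without a working Sgsh gene (SgshKO) and wild-type (WT) mice. The comparison used 4 of the 12 libraries of the study, 2 WT and 2 SgshKO, and all 82577 peaks of the deposited Olig2+ table, each with its nearest gene, its annotation and its distance to the transcription start site (TSS). All groups were C57BL/6 mice aged 4 months, and both genotypes went through the same sort. Forebrain nuclei were lightly fixed in formaldehyde, and those positive for OLIG2 and negative for the neuronal protein NEUN and the myeloid factor PU.1 were collected. The assay was ATAC-seq: a transposase inserts adapters into open chromatin, so reads pile up there. The other 8 libraries came from NeuN+ nuclei and microglia of the same genotypes. The labels give neither the kind of Sgsh allele nor the sex, the number of animals per library or the time of day of collection. They do not say whether the libraries of a genotype came from separate animals, so p-values measure only the spread between these samples, which may be technical.

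Sgsh encodes N-sulfoglucosamine sulfohydrolase, a lysosomal enzyme that removes sulfate groups from heparan sulfate during its breakdown. Its loss causes Sanfilippo syndrome type A (mucopolysaccharidosis IIIA), in which undegraded heparan sulfate accumulates and the brain degenerates. Olig2 is a basic helix-loop-helix transcription factor of the oligodendrocyte lineage, which runs from dividing precursors to the cells that wrap axons in myelin. Some astrocytes also carry it.

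The WT libraries held 19279923 and 19555924 tags (mapped reads) and the SgshKO libraries 16264397 and 15044194, and each peak's value was scaled by the authors to a library total of 10000000. Peaks held 30.9% to 31.8% of the tags, and the median peak had 22 to 30 reads per library. All 23 myelin genes of the marker list had a start-site peak, here a peak within 1000 bp of a TSS, and these peaks summed to 5991 and 6019 normalized tags in the WT Olig2+ libraries against 603 and 612 in the WT NeuN+ libraries. Neuron markers had a start-site peak at 8 of 27 genes and summed to 343 and 344 normalized tags in the WT Olig2+ libraries, against 1914 and 1773 in the WT NeuN+ libraries. Microglia markers had a start-site peak at 2 of 21 genes.

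In SgshKO Olig2+ nuclei, 6743 peaks rose and 9627 fell. Together these were 16370 of 82577 peaks (19.8% of those tested; 8.17% higher and 11.7% lower) at an adjusted p under 0.05 from limma on log2(normalized tags + 1), and they lay nearest to 7953 genes. Among called peaks the median change was 0.83 on the log2 scale for those that rose and -0.97 for those that fell. The rise or fall was at least 2-fold on that scale for 2381 and 4476 peaks. In 16353 of the called peaks both SgshKO libraries lay on 1 side of both WT libraries, as they did for 61.2% of all peaks. Over all peaks the median change was -0.07. Without WT library 1 or WT library 2 the counts were 6165 and 6090, and DESeq2 on the recovered reads called 3589. The split between directions moved with the scaling: 41.2% of called peaks were higher here, against 53.1% (8832 higher, 7802 lower) after scaling by the median of ratios and 60.9% (2184 higher, 1405 lower) in DESeq2.

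**Figure D1:**
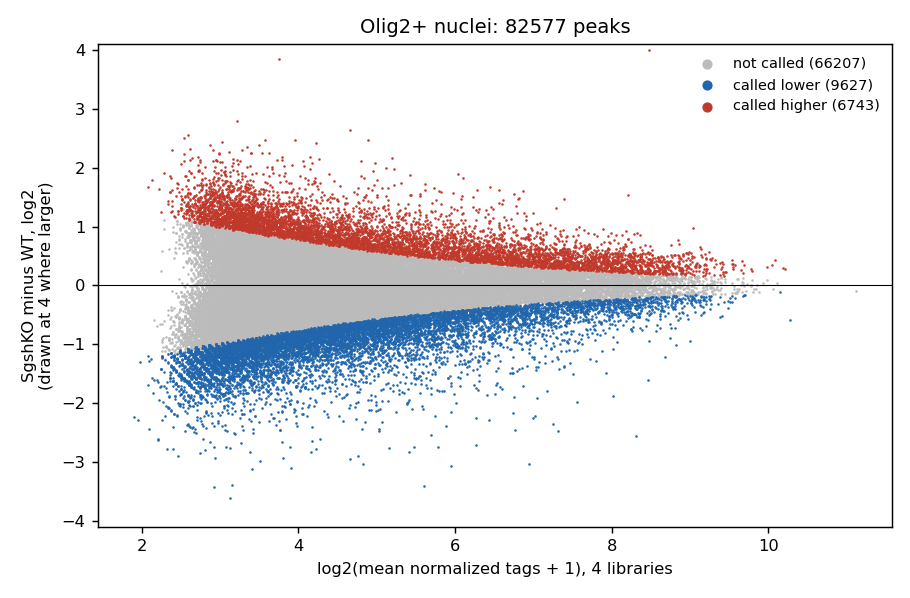
Change against level for the 82577 Olig2+ peaks, with log2(mean normalized tags + 1) over 4 libraries on the horizontal axis and the SgshKO minus WT difference on the vertical axis. Red points are the 6743 peaks called higher, blue points the 9627 called lower and grey points the rest. The size of change needed for a call shrinks as the level grows, and the blue cloud reaches farther from 0 than the red one.

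The direction differed with where a peak lay. Of 20120 start-site peaks, 4080 were called (20.3%), of which 2559 rose (12.7% of all) and 1521 fell (7.56%), with a median change of 0.05. Of the 62457 peaks farther away, 4184 rose (6.70%) and 8106 fell (12.98%), with a median of -0.13. The gap between the medians was 0.18, and it lay between 0.13 and 0.21 under the alternatives other than the GC correction. That correction, described below, covered start-site promoters only, so the gap was not computed after it. In each library the gap was taken as the median log2 level of start-site peaks minus that of the others. It was 1.24 and 1.19 in WT and 1.30 and 1.38 in SgshKO, so the genotypes did not overlap. With 2 libraries a genotype no exact test of such a value can reach an unadjusted p of 0.05. Peaks within 100 bp of a TSS rose most often (15.4% higher, 7.45% lower). At 100000 to 500000 bp the shares were 9.06% and 16.1%. Introns held the most peaks that fell, 5121 of 38979 (13.1%), while 2198 (5.64%) rose. Among peaks in short interspersed repeats of the B2 family, 155 of 983 fell (15.8%, against 11.7% of all peaks) and 36 rose (3.66%, against 8.17%). The share that fell was not particular to B2. It was 16.4% in the L1, 17.4% in the L2 and 16.5% in the hAT repeats, while it was 8.22% in Alu and 7.63% in B4 repeats.

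Promoter sequence moved with the genotype difference as well. RefSeq promoter sequences of build GRCm38.p6, from 250 bases before to 50 after the start, overlapped a start-site peak by at least 100 bp at 8570 genes. Ranked by GC content and divided into 5 groups, 592 of 1692 promoters in the highest group rose (35.0%) and 25 fell (1.48%). In the lowest group, 70 of 1778 rose (3.94%) and 270 fell (15.2%). The median GC content was 68.7% in promoters that rose, 57.0% in those that fell and 61.7% in those not called. Within each library, the median log2 level of the highest group minus that of the lowest was 0.904 and 0.898 in WT and 1.23 and 1.30 in SgshKO. A GC correction chosen after seeing the data, a loess curve per library over these promoters, left 847 higher and 1038 lower where there had been 1405 and 685, with 1251 calls shared and 0 of opposite direction. PCR cycles, given only as a range in the labels, and the sequencing instrument are not tied to libraries, and their part in the GC trend was not tested. Distal peaks could not be corrected in this way because no genome sequence was used here.

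**Figure D2:**
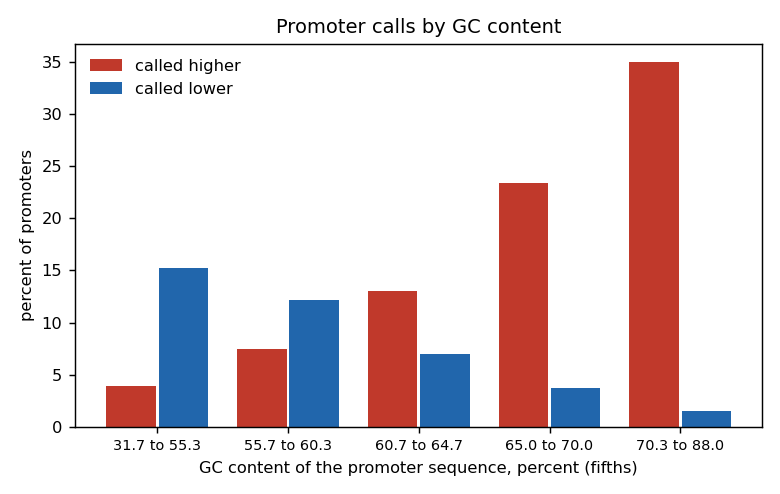
Share of promoters called higher (red) or lower (blue) in SgshKO, in percent, in 5 groups of the 8570 promoters by GC content. The red bars climb from 3.94% to 35.0% and the blue bars drop from 15.2% to 1.48%.

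The group with the largest share of lower peaks was a list of 22 genes known to respond to glucocorticoids, the adrenal stress hormones. These hormones act through the receptor NR3C1, a transcription factor that enters the nucleus when hormone is bound and attaches to palindromic sites in DNA. Of the 411 peaks nearest to 21 of these genes, 170 fell (41.4%, against 11.7% of all peaks) and 8 rose (1.95%, against 8.17%). Their median change was -0.60, against -0.07 over all peaks. Summed over all of them, the WT libraries held 16658 and 16414 tags and the SgshKO libraries 11179 and 11491. Among start-site peaks 20 of 54 fell (37.0%, against 7.56% of all start-site peaks) and 2 rose (3.70%, against 12.7%). The list was assembled with earlier results of these data known, so its direction is a description. Its count of lower peaks was 90 without WT library 1, 79 without WT library 2 and 50 in DESeq2, with 5, 4 and 4 higher.

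Plin4, which encodes the lipid droplet coat protein perilipin 4, had 18 peaks, and all 18 fell. Its start-site peak (chr17:56109771-56109988) held 211 and 211 normalized tags in WT and 46.7 and 40.5 in SgshKO (-2.25 ± 0.13, adjusted p = 1.08e-13). The peak of the list with the smallest p, in an intron at 1017 bp, held 529.6 and 534 in WT and 171 and 175 in SgshKO (-1.61 ± 0.08, adjusted p = 1.14e-15). In both peaks the SgshKO libraries lay far below the WT libraries, which were close together. Summed over the 18 peaks the locus fell from 1255 and 1259 to 396 and 409.

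Sgk1 encodes a serum- and glucocorticoid-regulated kinase that acts on ion channels. At this locus 20 of 32 peaks fell and none rose. A peak at 5776 bp, annotated at the transcription end of the gene (chr10:22000104-22000781), held 221 and 216 normalized tags in WT and 31.4 and 21.3 in SgshKO (-3.03 ± 0.16, adjusted p = 6.97e-15). At its start site 5 peaks fell, the highest from 378 and 352 to 243 and 275 (-0.49 ± 0.08, adjusted p = 4.88e-05). Beside its paralogue Sgk3, an intronic peak at 3385 bp fell from 38.9 and 54.7 to 6.15 and 4.65 (-2.89 ± 0.27, adjusted p = 7.04e-09).

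Zbtb16 encodes the zinc finger repressor PLZF, and 51 of 91 peaks nearest to it fell. The strongest call of the locus, in an intron at 98266 bp, went from 213 and 212 in WT to 56.6 and 35.2 in SgshKO (-2.22 ± 0.15, adjusted p = 6.30e-12). Pdk4, a kinase that restrains pyruvate dehydrogenase, had 4 of 10 peaks lower. An intergenic peak 52887 bp from its TSS held 113 and 106 in WT and 15.99 and 9.31 in SgshKO (-3.06 ± 0.21, adjusted p = 8.08e-12).

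The zinc finger factor genes Klf9 and Klf15 had 18 of 38 and 12 of 24 peaks lower and none higher. Summed tags at Klf9, which also takes part in oligodendrocyte maturation, fell from 1262 and 1270.2 to 727 and 736. At Htra1, a secreted protease that astrocytes also express, 10 of 16 peaks fell, and the locus sum went from 473 and 493 to 283 and 283. Not every locus of the list moved this way. None of the 12 peaks at the receptor gene Nr3c1 fell and 2 rose, and the sum went from 763 and 773 to 905 and 924. The 3 peaks of Fkbp5, which encodes a chaperone of the receptor, were not called. Mt2, which encodes a metal-binding metallothionein, rose at its start site from 12.4 and 12.8 to 38.1 and 39.9 (1.55 ± 0.23, adjusted p = 1.89e-05). Without Plin4, Zbtb16, Sgk1, Klf9 and Pdk4, genes picked out after their values were seen, 59 of the remaining 222 peaks fell (26.6%) and 8 rose.

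**Figure D3:**
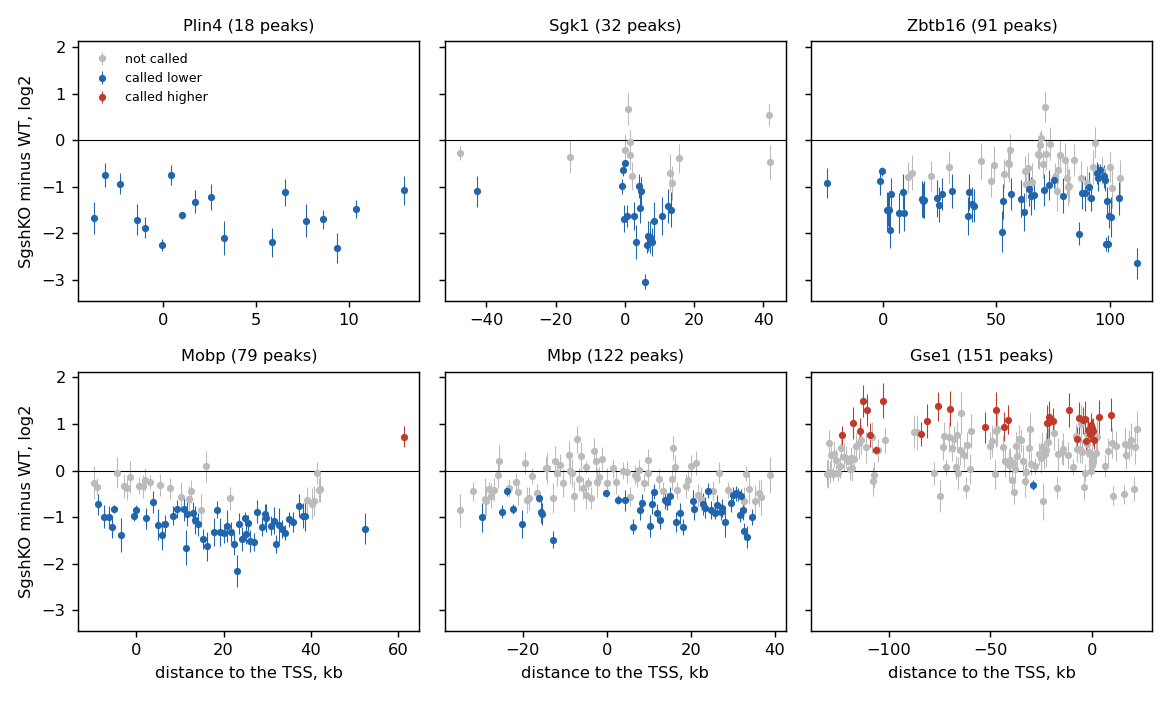
Log2 change (SgshKO minus WT, error bars are standard errors) of each peak against its distance from the TSS in kb at 6 loci, with called peaks in blue (lower) or red (higher). All 18 Plin4 peaks are lower, most peaks of Sgk1, Zbtb16 and Mobp and many of Mbp are lower, and called Gse1 peaks are higher apart from 1.

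The 8 largest decreases at start sites, among peaks at or above the median level, included Plin4 and 7 others outside the list. Phyhd1, whose product resembles phytanoyl-CoA hydroxylase, went from 270.2 and 267 normalized tags in WT to 43.0 and 52.5 in SgshKO (-2.47 ± 0.12, adjusted p = 3.55e-15). Fam107a, an actin-associated gene, went from 62.2 and 60.9 to 17.2 and 16.6 (-1.80 ± 0.20, adjusted p = 1.33e-07). In both peaks the pairs of libraries were close together and far apart between genotypes. The others were 1700060C20Rik, 4931431B13Rik, 6030466F02Rik, Mir6399 and the signalling adaptor gene Stap2, with changes from -2.75 to -1.74.

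RefSeq promoter sequences at 5 start-site peaks are shown: 3 of the 8 largest decreases, then Lamp1, which rose, and Sgsh itself. They come from build GRCm38.p6, run 5′ to 3′ along the gene, and are lower case but for matched letters. Capitals in the first pair mark the core of a paired glucocorticoid receptor element, ACANNNTGT, and the hexamer AGAACA, 1 arm of the element, on either strand. Phyhd1 (chr2:30265953-30266252, plus strand) has 1 core match 107 bases before the start, and Fam107a (chr14:8309730-8310029, minus strand) has a core match 116 bases before it, overlapping the hexamer, and another hexamer farther upstream.
Phyhd1: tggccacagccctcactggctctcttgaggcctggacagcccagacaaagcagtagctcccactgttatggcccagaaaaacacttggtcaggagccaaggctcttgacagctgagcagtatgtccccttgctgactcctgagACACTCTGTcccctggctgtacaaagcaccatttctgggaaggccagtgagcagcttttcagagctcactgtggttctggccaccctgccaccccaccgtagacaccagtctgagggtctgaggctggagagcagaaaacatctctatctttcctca
Fam107a: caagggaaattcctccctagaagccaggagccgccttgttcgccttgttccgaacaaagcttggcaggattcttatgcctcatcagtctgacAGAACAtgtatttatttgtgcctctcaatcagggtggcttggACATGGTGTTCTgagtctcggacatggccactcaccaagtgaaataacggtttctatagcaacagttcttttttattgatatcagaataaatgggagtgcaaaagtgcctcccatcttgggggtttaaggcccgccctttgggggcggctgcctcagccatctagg

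Capitals in the next 3 sequences mark matches on either strand to CCAAT (bound by NF-Y), to the GC box GGGCGG or to the E-box CACGTG. Plin4 (chr17:56109733-56110032, minus strand) has neither the receptor core nor the hexamer in this window and 1 CCAAT match on the reverse strand. Lamp1 (chr8:13158911-13159210, plus strand) has 4 matches to CACGTG, the centre of the lysosomal gene element bound by TFEB and its relatives. Sgsh (chr11:119355461-119355760, minus strand) has 1 GGGCGG and 1 CACGTG.
Plin4: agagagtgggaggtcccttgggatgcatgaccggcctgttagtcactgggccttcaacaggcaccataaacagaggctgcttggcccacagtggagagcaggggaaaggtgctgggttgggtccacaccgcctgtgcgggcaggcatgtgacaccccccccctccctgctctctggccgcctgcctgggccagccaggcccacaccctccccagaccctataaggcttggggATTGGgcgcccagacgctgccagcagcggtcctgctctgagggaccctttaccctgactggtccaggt
Lamp1: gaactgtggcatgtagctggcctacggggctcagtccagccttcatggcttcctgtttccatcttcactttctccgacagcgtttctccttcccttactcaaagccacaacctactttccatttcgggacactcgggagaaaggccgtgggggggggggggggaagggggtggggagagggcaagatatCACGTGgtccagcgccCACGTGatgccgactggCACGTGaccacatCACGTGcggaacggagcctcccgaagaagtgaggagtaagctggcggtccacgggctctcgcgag
Sgsh: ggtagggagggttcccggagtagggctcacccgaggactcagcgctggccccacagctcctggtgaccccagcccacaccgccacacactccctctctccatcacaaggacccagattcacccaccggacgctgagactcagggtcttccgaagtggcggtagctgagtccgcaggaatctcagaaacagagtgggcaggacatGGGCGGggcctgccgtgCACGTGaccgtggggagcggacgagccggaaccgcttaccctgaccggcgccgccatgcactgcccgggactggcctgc

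Over all 8570 promoters with a peak, the letters ACANNNTGT were found in 43 of those that fell (6.28%), in 22 of those that rose (1.57%) and in 3.30% of all, against 6.85% of the 32817 promoters of the reference table. This motif and the hexamer were added after the data were seen. AGAACA, searched on both strands, was in 15.5% of those that fell and 8.40% of those that rose. ACANNNTGT and AGAACA were also both found in the promoter of Serpina3n, whose highest start-site peak was not called. GGGCGG, the GC box bound by SP factors, was in 86.0% of promoters that rose and 58.8% of those that fell. CCAAT was in 33.9% and 54.6%. CACGTG was in 12.0% and 11.7%, against 11.0% of all promoters with a peak. These shares move with GC content, and a match is a description of letters, not of a bound site.

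Clock genes, which keep daily time through a loop of activators and repressors, had start-site peaks called in both directions. Of 42 start-site peaks of 18 clock genes, 11 fell (26.2%, against 7.56% of all start-site peaks) and 5 rose (11.9%, against 12.7%). Only the share that fell stood apart from that of all start-site peaks. Of the 17 with a promoter sequence, 2 were higher and 5 lower, and after the GC correction 2 were higher and 8 lower. Peaks of the repressor genes Per1, Per2 and Ciart fell, and so did those of Dbp and Tef, which encode output factors. Per2 went from 209 and 206 to 143 and 139 (-0.55 ± 0.10, adjusted p = 1.63e-04) and Dbp from 368 and 390.2 to 282 and 266 (-0.47 ± 0.07, adjusted p = 4.66e-05). The activator genes Arntl and Clock rose, Arntl from 139 and 129 to 187 and 195 (0.51 ± 0.10, adjusted p = 6.98e-04). Nfil3, a repressor of Dbp targets, rose from 112 and 121 to 165 and 218 (0.70 ± 0.12, adjusted p = 8.16e-05), and Bhlhe40 rose from 160.3 and 162 to 247 and 241 (0.60 ± 0.09, adjusted p = 2.56e-05). At Nr1d2, which encodes the repressor REV-ERB beta, the peak at the start site fell and a peak 609 bp into the gene rose. Per1 is in both the clock and the glucocorticoid list. The part of the time of day of collection was not tested.

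Peaks at myelin genes fell, mostly away from their start sites. Of 775 peaks at 23 genes of myelin proteins, 190 fell (24.5%, against 11.7% of all peaks) and 21 rose (2.71%, against 8.17%), and their summed tags went from 29206 and 29194 in WT to 22858 and 23112 in SgshKO. Their median change was -0.32. Among start-site peaks 10 of 64 fell (15.6%, against 7.56% of all start-site peaks) and 3 rose (4.69%, against 12.7%). Without WT library 1 or 2 the lower counts were 94 and 90, and DESeq2 gave 60. Most lower peaks lay at Mobp and Mbp, which encode structural proteins of compact myelin. At Mobp 54 of 79 peaks fell and the sum went from 3201 and 3201 to 1703 and 1671. At Mbp 47 of 122 peaks fell and the sum went from 5887 and 5841 to 4021 and 4086. In both loci the 2 libraries of a genotype differed far less than the genotypes did.

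The highest start-site peaks of myelin genes did not all move together. That of Mobp went from 236 and 219 to 129 and 104 (-0.97 ± 0.11, adjusted p = 1.50e-07), that of Mbp from 532 and 543 to 370.1 and 402 (-0.48 ± 0.06, adjusted p = 3.82e-06) and that of Cnp, an enzyme of uncompacted myelin, from 656 and 677 to 479 and 478 (-0.48 ± 0.06, adjusted p = 4.96e-07). The highest start-site peaks of Mog (-0.19 ± 0.08, adjusted p = 0.0964), Mag (0.18 ± 0.08, adjusted p = 0.139), Cldn11 (-0.09 ± 0.10, adjusted p = 0.569) and Opalin (-0.08 ± 0.13, adjusted p = 0.69) were not called. Mag was called higher by edgeR, after median-of-ratios scaling and without SgshKO library 1, and Mog lower after quantile normalization. Smaller start-site peaks were called at Mag, lower at -121 bp (-0.69 ± 0.25, adjusted p = 0.0492), and at Opalin, higher at 459 bp (1.08 ± 0.38, adjusted p = 0.0428). Opalin, a marker of mature oligodendrocytes, went the other way elsewhere: 8 of 38 peaks rose and none fell, the strongest at -4631 bp from 83.5 and 76.7 to 141 and 118 (0.69 ± 0.13, adjusted p = 3.19e-04). Calls at the tight junction gene Cldn11, at Mal and at the axon adhesion gene Nfasc were mostly lower (13 of 49, 12 of 31 and 22 of 98 peaks).

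In bulk nuclei, fewer nuclei of a type and less open chromatin per nucleus cannot be told apart. The start-site sum of the myelin list was 5991 and 6019 in WT and 5136 and 5141 in SgshKO, and that of 19 precursor genes went from 949.7 and 900.0 to 1010.2 and 1041. The start-site sum of 8 astrocyte genes went from 466 and 456 to 400.3 and 372, with 4 of its 10 peaks lower and 0 higher, while that of neuron markers went from 343 and 344 to 357 and 340.3. Microglia markers went from 240.2 and 233 to 271 and 284 over 4 peaks, and endothelial and mural markers from 364 and 374 to 368 and 375 over 5. Over all distances, 18 of 85 astrocyte peaks fell (21.2%, against 11.7% of all peaks) and 8 rose (9.41%, against 8.17%). Of the 18, 10 lay at Htra1, which is also on the glucocorticoid list. For neuron markers 11 of 68 fell (16.2%) and 7 rose (10.3%). For microglia markers 3 of 52 fell (5.77%) and 7 rose (13.5%). For endothelial and mural markers 4 of 50 fell (8%) and 6 rose (12%). The other genes of these lists, among them the astrocyte genes Gfap, Aqp4 and Aldh1l1 and the microglial genes Cx3cr1, Spi1 and Trem2, had no start-site peak in the table. The part of a changed mix of nuclei in the glucocorticoid and myelin results was not tested.

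Among the factors that define the lineage, 11 of 52 start-site peaks rose (21.2%, against 12.7% of all start-site peaks) and 2 fell (3.85%, against 7.56%). Of the 11 with a promoter sequence, 4 were higher and 1 lower, and after the GC correction 2 were higher and 4 lower. The highest start-site peak of Olig2 itself held 194 and 184 normalized tags in WT and 181 and 161 in SgshKO (-0.15 ± 0.10, adjusted p = 0.297), although after the GC correction this peak was called lower (-0.26). Olig1 (0.10 ± 0.07, adjusted p = 0.38), Sox10 (-0.08 ± 0.09, adjusted p = 0.575) and Myrf (0.03 ± 0.09, adjusted p = 0.872), the regulator that switches on myelin genes, were likewise not called at their highest start-site peak. Nkx6-2 was not called (-0.16 ± 0.10, adjusted p = 0.301), but was lower after the GC correction (-0.31). Nkx2-2, a homeodomain factor of precursors and early differentiation, rose from 33.2 and 34.3 to 59.0 and 55.8 (0.75 ± 0.18, adjusted p = 0.00329). Sox6, which holds precursors back from maturing, rose at its start site from 7.26 and 13.3 to 34.4 and 33.2 (1.68 ± 0.27, adjusted p = 4.99e-05) and in an intron at -20163 bp from 47.2 and 59.3 to 132 and 146 (1.38 ± 0.14, adjusted p = 2.65e-08). Over the 604 peaks of 23 lineage factors, 43 rose (7.12%) and 51 fell (8.44%), both shares below those of all peaks. Over all peaks nearest to them, 7 of 38 at Olig2 and 5 of 49 at Olig1 rose and 1 fell at each.

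Of 194 peaks at precursor genes, 20 rose (10.3%, against 8.17% of all peaks) and 17 fell (8.76%, against 11.7%). The highest start-site peaks of the precursor markers Pdgfra (0.27 ± 0.23, adjusted p = 0.429) and Cspg4 (0.40 ± 0.28, adjusted p = 0.336) were not called, nor was that of Gpr17 (0.21 ± 0.11, adjusted p = 0.166), a marker of committed precursors, which edgeR called higher. A low Pdgfra peak at 814 bp fell from 5.19 and 10.7 to 1.84 and 3.99 (-1.18 ± 0.42, adjusted p = 0.0439). Ptprz1, a receptor phosphatase of precursors, had 4 of 6 peaks higher, with its start-site peak at 12.4 and 9.72 in WT and 19.7 and 29.2 in SgshKO (1.06 ± 0.28, adjusted p = 0.00734). Receptors and signals of the lineage rose at 13 of 45 start-site peaks (28.9%, against 12.7% of all) and fell at 4, and without WT library 1 or 2 the higher counts were 7 and 6. At Notch1, whose receptor restrains differentiation, 11 of 18 peaks rose and the sum went from 414 and 384 to 648 and 663. The start-site peak of its ligand gene Dll1 went from 35.8 and 40.4 to 71.3 and 64.5 (0.82 ± 0.17, adjusted p = 9.25e-04), and that of the thyroid hormone receptor gene Thrb from 62.8 and 61.9 to 109 and 120.3 (0.87 ± 0.13, adjusted p = 3.06e-05). At Thra, the other thyroid hormone receptor gene, a start-site peak at 688 bp rose from 14.5 and 13.8 to 25.8 and 23.9 (0.77 ± 0.25, adjusted p = 0.0289). An intronic Thra peak at 12662 bp fell from 58.1 and 44.0 to 16.6 and 18.6 (-1.47 ± 0.21, adjusted p = 1.18e-05).

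**Figure D4:**
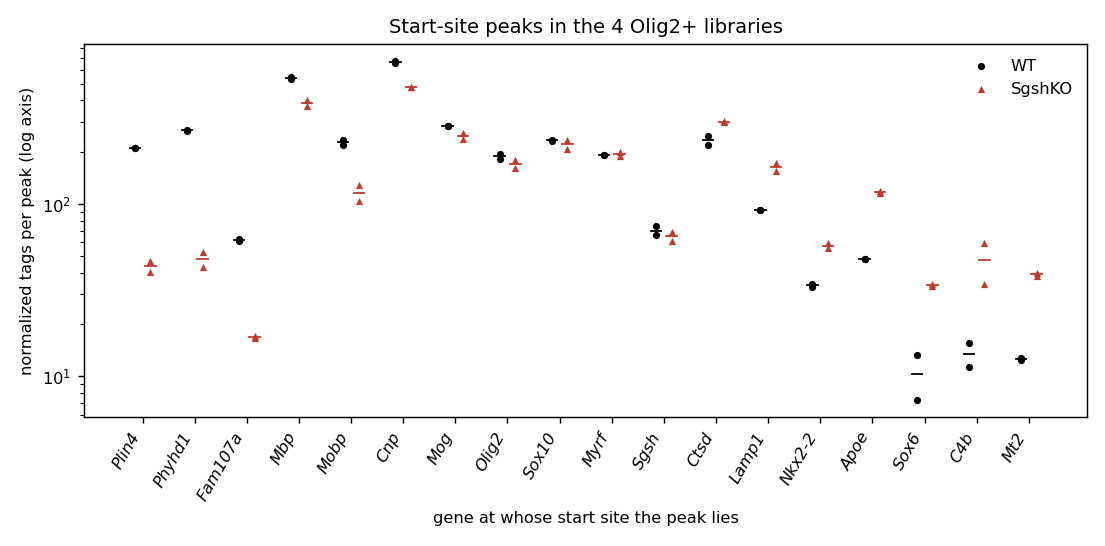
Normalized tags (log axis) of 18 start-site peaks in each WT library (black circles) and each SgshKO library (red triangles), with a bar at the mean of 2 libraries. Plin4, Phyhd1 and Fam107a are lower in SgshKO, the peaks from Mog to Sgsh lie close together, and those from Lamp1 to Mt2 are higher.

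The Sgsh start-site peak (chr11:119355403-119355637) held 65.9 and 74.2 normalized tags in WT and 60.9 and 69.1 in SgshKO, and the genotypes overlapped (-0.11 ± 0.15, adjusted p = 0.653). In NeuN+ nuclei the same peak held 34.5 and 22.6 in WT and 9.07 and 13.3 in SgshKO, and the effects differed between sorts (1.16 ± 0.31, adjusted p = 0.00329). Such a difference was common. Of 14432 shared start-site peaks, the effect was higher in Olig2+ nuclei at 49.3%, with a median difference of 0.62. The shift over all shared peaks depends on scaling, as given below. A start-site peak does not show whether the gene is disrupted, so it does not check the labels. Of only 25 peaks at 8 heparan sulfate breakdown genes, 1 rose (4%, against 8.17% of all peaks) and 0 fell (0%, against 11.7%). That peak, at Arsg, which encodes a sulfatase of the same pathway, went from 142 and 119.7 to 164 and 166 (0.34 ± 0.11, adjusted p = 0.0278). The call was lost in DESeq2 (adjusted p = 0.0934) and without WT library 2 or SgshKO library 2. Genes that build heparan sulfate and its core proteins had 27 of 258 peaks lower (10.5%, against 11.7% of all peaks) and 19 higher (7.36%, against 8.17%). Their start-site peaks rose at 7 of 45 (15.6%, against 12.7% of all start-site peaks) and fell at 2, and after the GC correction none of the 16 with a promoter sequence was called. Away from start sites the exostosin gene Ext1, which elongates the chain, had a peak at 282391 bp that fell from 202 and 191 to 71.9 and 99.7 (-1.20 ± 0.13, adjusted p = 4.68e-08).

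Lysosomal genes were divided. The start-site peak of Lamp1, a major glycoprotein of the lysosomal membrane, rose from 92.8 and 92.6 to 172 and 155 (0.81 ± 0.11, adjusted p = 7.83e-06), with a change of 0.78 after the GC correction, while a smaller peak 520 bp into the gene fell. Start-site peaks of the proton pump gene Atp6v1b2 (186 and 168 to 231 and 267), of the calcium channel gene Mcoln1 (138 and 137 to 191 and 201) and of the tetraspanin gene Cd63 (158 and 119 to 227 and 232) rose as well. Those of the cystine transporter gene Ctns (71.1 and 64.4 to 41.2 and 39.2) and of Man2b1, a mannosidase (72.1 and 72.6 to 51.0 and 49.9), fell. Start-site peaks at the proton pump genes Atp6v1a (-0.78), Atp6v1g1 (-0.84) and Atp6v1e1 (-0.94) fell too, while at Atp6v1c1 a start-site peak rose (0.37). Ctsd, the protease cathepsin D, rose from 248 and 221 to 302 and 299 (0.36 ± 0.08, adjusted p = 0.00264), a call lost without WT library 2 (0.28) and after the GC correction (0.19). Over all peaks of lysosomal hydrolases and activators, 28 of 132 fell (21.2%, against 11.7% of all peaks) and 8 rose (6.06%, against 8.17%). Of the 28, 10 lay at Psap, which encodes the precursor of the saposins. Only 7 and 6 peaks of this list fell without WT library 1 or 2, and DESeq2 gave 4 lower and 6 higher. For membrane proteins and the proton pump, 13 of 122 were lower (10.7%) and 11 higher (9.02%), near the shares of all peaks. Of their 68 start-site peaks, 9 rose (13.2%, against 12.7% of all start-site peaks) and 6 fell (8.82%, against 7.56%).

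Among the factors that switch on lysosomal genes, the highest start-site peaks of Mitf (-0.10 ± 0.10, adjusted p = 0.48), Tfeb (0.18 ± 0.08, adjusted p = 0.113) and Tfe3 (-0.18 ± 0.11, adjusted p = 0.256) were not called, though edgeR and median-of-ratios scaling called that of Tfeb higher. Over these factors and their regulators, 16 of 156 peaks fell (10.3%, against 11.7% of all peaks) and 9 rose (5.77%, against 8.17%). A second peak beside the Tfeb start rose from 200.2 and 206 to 263 and 266 (0.38 ± 0.09, adjusted p = 0.00229), and an intronic peak at 10958 bp fell from 36.3 and 46.0 to 16.6 and 19.9 (-1.13 ± 0.22, adjusted p = 5.64e-04). Lamtor1, part of the Ragulator complex on the lysosome, rose from 191 and 169.8 to 253 and 271 (0.53 ± 0.09, adjusted p = 1.07e-04). Autophagy genes had 14 of 146 peaks lower (9.59%) and 7 higher (4.79%), both shares below those of all peaks. Atg5, which serves membrane conjugation, rose from 160.3 and 164 to 248 and 253 (0.63 ± 0.09, adjusted p = 1.17e-05) and the cargo receptor gene Nbr1 fell from 379 and 378 to 264 and 256 (-0.54 ± 0.07, adjusted p = 5.52e-06).

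At genes of cholesterol synthesis, uptake and efflux, 12 of 47 start-site peaks rose (25.5%, against 12.7% of all) and 0 fell. Without WT library 1 or 2 the higher counts were 6 and 7. Sqle, an epoxidase of cholesterol synthesis, went from 332 and 372 to 445 and 572 (0.52 ± 0.08, adjusted p = 4.01e-05), and Insig1, which restrains the pathway, from 564 and 528 to 699.7 and 770.4 (0.43 ± 0.06, adjusted p = 3.82e-06). A distal Insig1 peak at -15888 bp fell from 144 and 136 to 36.9 and 48.5 (-1.70 ± 0.15, adjusted p = 1.33e-09). Over all 173 peaks of the list, 29 rose (16.8%, against 8.17% of all peaks) and 8 fell (4.62%, against 11.7%). Of 19 start-site peaks with a promoter sequence, 9 rose before the GC correction, and after it 3 were higher and 2 lower. Apoe, the main lipid carrier of the brain, had 5 of 9 peaks higher. Its start-site peak went from 48.2 and 48.1 to 116 and 119.7 (1.27 ± 0.14, adjusted p = 1.11e-07), with a change of 1.31 after the correction.

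Of 20 genes that mark oligodendrocytes in disease, 18 had peaks. Of those 115 peaks, 37 fell (32.2%, against 11.7% of all peaks) and 12 rose (10.4%, against 8.17%). Of the lower peaks 20 lay at Sgk1, which is also on the glucocorticoid list, and 20 fell without WT library 1 or without WT library 2. C4b, which encodes complement component C4, had both of its peaks higher. Its start-site peak went from 15.6 and 11.2 to 59.6 and 34.6 (1.71 ± 0.25, adjusted p = 1.38e-05), with the SgshKO libraries apart from each other but both above WT. Serpina3n, a protease inhibitor gene, was not called at its highest start-site peak (0.42 ± 0.28, adjusted p = 0.301). Genes of ATF4 and the unfolded protein response act when protein folding in the endoplasmic reticulum is disturbed. Of their 145 peaks, 30 fell (20.7%, against 11.7% of all peaks) and 2 rose (1.38%, against 8.17%). The lower count was 9 and 11 without WT library 1 or 2, and 2 in DESeq2. At Herpud1, which serves degradation of misfolded proteins, 5 of 7 peaks fell, the strongest from 111 and 112 to 58.4 and 38.5 (-1.22 ± 0.16, adjusted p = 2.48e-06).

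**Figure D5:**
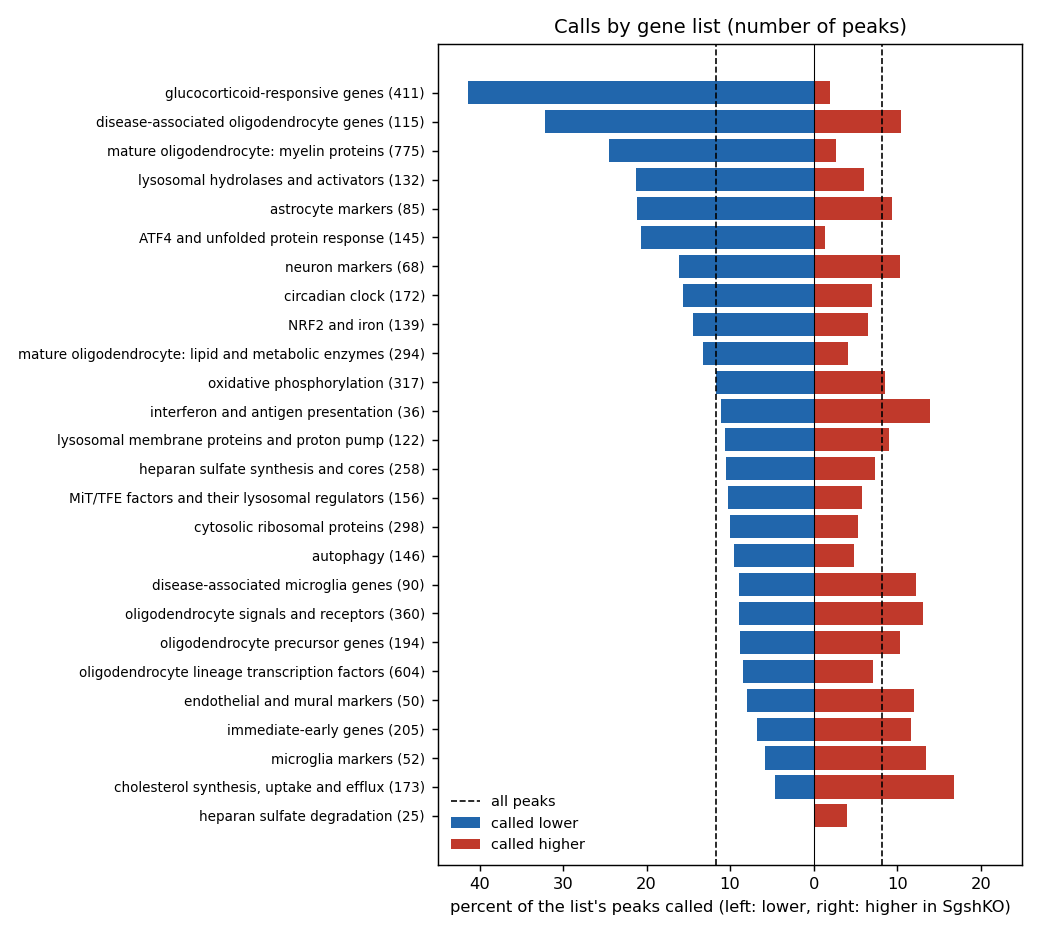
Percent of the peaks of each of 26 gene lists called lower (blue, to the left) or higher (red, to the right) in SgshKO, with the number of peaks in parentheses. Dashed lines give the shares over all peaks, 11.7% lower and 8.17% higher. Glucocorticoid-responsive genes reach 41.4% lower, and cholesterol genes have the largest share of higher peaks at 16.8%.

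Among start-site peaks at or above the median level, the largest rises were at Dok1, Wfdc18, Mir3057, C4b, Sox6, Il11ra1, Pde4a and Mt2, with changes from 2.15 to 1.55. Wfdc18, which encodes a small secreted protein, went from 9.85 and 12.3 to 57.2 and 43.2 (2.08 ± 0.24, adjusted p = 1.96e-07), and Il11ra1, a receptor chain for interleukin 11, from 10.9 and 15.8 to 37.5 and 50.5 (1.65 ± 0.24, adjusted p = 1.22e-05). Dok1, a docking protein of tyrosine kinases, went from 10.4 and 3.07 to 24.6 and 34.6 (2.15 ± 0.35, adjusted p = 4.96e-05), where the WT libraries were themselves apart.

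Far from start sites the largest rise was an intergenic peak nearest to Col19a1, the only peak of the table with 0 reads in both WT libraries, and none had 0 in both SgshKO libraries. It was at 731 and 693 normalized tags in SgshKO. It was also at 0 in both WT NeuN+ libraries and at 488.6 and 514 in the SgshKO NeuN+ libraries. As background, this stretch of chromosome 1 carries a nuclear copy of mitochondrial DNA, and reads of the 2 origins cannot be told apart. Whether reads here were filtered alike in both genotypes is not stated in the labels, so the 0 in every WT library of both sorts may not be a measured absence of accessibility. Among distal peaks at or above the median level, the next largest lay near Gm20758, C8b, Sash1, Thumpd3 and Pcdh9, from 2.63 to 2.16. The peak nearest to Pcdh9, a protocadherin gene, lay at -461420 bp from its TSS and rose from 8.30 and 17.9 to 59.0 and 57.8 (2.16 ± 0.25, adjusted p = 3.08e-07).

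Among distal peaks at or above the median level, the largest decrease was an intergenic peak 86897 bp from the TSS of Actl7b, from 98.5 and 76.2 to 4.92 and 10.6 (-3.40 ± 0.26, adjusted p = 6.41e-11). Next to the Pdk4 and Sgk1 peaks came peaks near 1700044K03Rik, Dtnb and Sgk3. Dtnb, a dystrobrevin gene, had a peak at -8510 bp that fell from 46.2 and 41.4 to 4.30 and 5.32 (-2.95 ± 0.27, adjusted p = 4.66e-09). An intronic peak of Atp6v0e, a proton pump subunit gene, fell from 65.9 and 86.9 to 8.61 and 12.6 (-2.74 ± 0.23, adjusted p = 4.50e-10). Nearest gene is a label of position and does not show which gene a distal peak serves.

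Some loci changed over long stretches. At E030018B13Rik, annotated as protein-coding, 46 of 54 peaks fell and the sum went from 1309 and 1357 to 512 and 551. Kndc1, a guanine nucleotide exchange factor gene, and the non-coding 9130227L01Rik had 26 of 48 and 23 of 36 peaks lower, and none higher. In the other direction, Gse1, a subunit gene of a histone deacetylase complex, had 34 of 151 peaks higher and 1 lower, and its sum went from 3110.4 and 3085 to 3799 and 3882. Peaks nearest to A330074K22Rik run up to those of Gse1 on chromosome 8, the last ending at 120358319 and the first Gse1 peak starting at 120358380. Of these 138 peaks, 18 were higher and 3 lower. The strongest A330074K22Rik call was a fall at -72478 bp, from 101 and 106 to 44.3 and 35.2 (-1.37 ± 0.16, adjusted p = 2.05e-07). Irf2bpl had 24 of 39 peaks higher and none lower, with a sum of 934 and 912 in WT and 1453 and 1471 in SgshKO. Lactbl1, 1810010D01Rik and Ajap1 had 15 of 27, 14 of 44 and 13 of 36 higher. Chromosome 10 had the highest share of rising peaks among the autosomes and X, 536 of 4341 (12.3%), and a median change of 0.05, while the other medians lay below 0.

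The genotype effect was set against that in NeuN+ nuclei over 29576 peaks present in both tables, with an interaction term in limma. The effect differed at 10361 (35.0%), and in Olig2+ nuclei it was the higher at 9389 (31.7%) and the lower at 972 (3.29%). The median effect was -0.06 in Olig2+ and -0.49 in NeuN+ nuclei. That shift depends on scaling: after quantile normalization within each sort 5544 differed, 2856 higher and 2688 lower. Of 95 shared glucocorticoid-responsive peaks, 41 fell in Olig2+ nuclei (43.2%, against 11.7% of all shared peaks) and 36 in NeuN+ nuclei (37.9%, against 39.9%). The effect differed at 18 upward and 14 downward, and the median difference was 0.00 against 0.41 over all pairs. At the Pdk4 peak the fall was larger in Olig2+ nuclei (difference -1.65 ± 0.38, adjusted p = 9.05e-04). The Stap2 start site fell in both sorts (difference 0.06 ± 0.39, adjusted p = 0.919).

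Of 101 shared myelin peaks, 27 fell in Olig2+ nuclei (26.7%, against 11.7% of all shared peaks) and 23 in NeuN+ nuclei (22.8%, against 39.9%), and the effect differed at 6 upward and 5 downward. Start sites as a whole were shifted between the sorts: of 14432 shared start-site peaks the effect was higher in Olig2+ nuclei at 7115 (49.3%) and lower at 250, with median effects of 0.06 and -0.57 and a median difference of 0.62. Values at single start sites stand beside that shift. The Lamp1 start site, which rose in Olig2+ nuclei, held 63.4 and 48.6 normalized tags in WT and 54.4 and 55.9 in SgshKO NeuN+ nuclei (difference of effects 0.82 ± 0.20, adjusted p = 0.00165). Mt2 held 11.3 and 10.7 against 9.77 and 10.8 there (difference 1.65 ± 0.38, adjusted p = 8.90e-04).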

How the data were processed

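ATAC-seq was deposited as 1 peak table per sort. The signal in each library's column is the number of tags in a peak, scaled by the authors to a library total of 10000000, per the file headers. The deposited Peak Score, a score from 540 to 1000, served only as a filter in an alternative. Bowtie2, HOMER and genome build mm10 are named in the submitters' processing notes, while settings of the peak caller, read shifting and duplicate handling were not given in the sources used here. Per the labels, libraries were gel-selected to 155 to 250 bp and sequenced single-end, so copies of repeats can share reads. Dividing out the scaling gave whole reads for 100% of values (within 0.02), which edgeR and DESeq2 used.

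Every peak was kept. WT and SgshKO (n = 2 each) were compared with limma 3.58.1 in R 4.3.3 on log2(normalized tags + 1) with an intensity trend, 2-sided. Calls needed an adjusted p under 0.05 (Benjamini-Hochberg, all 82577 peaks). Changes are on this scale, which understates those of low peaks, and ± after a change is its standard error. Sorts were compared by an interaction term over 29576 peaks with one-to-one 50% reciprocal overlap. On counts simulated for the Olig2+ peaks, limma recovered 38.0% of 200 changes of 2-fold and 87.5% of 200 changes of 4-fold, with 5 and 2 of 82377 unchanged peaks called.

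Symbols turned into dates in 168 rows were restored by Entrez number. The labels' replicate numbers do not pair the libraries (correlation of deviations 0.00069). Named peaks followed a rule: the 8 largest rises and falls among well-covered called start-site peaks, 6 and 6 among distal ones, the highest start-site peak of set panel genes, the strongest call each way in each of 26 lists, the 6 loci with the largest excess each way, peaks at 0 in a genotype, and 3 differences between sorts each way. Other start-site peaks of the lists were named after their values were seen. Members and lists were chosen with earlier results of these data known. Alternatives were other pseudocounts, filters, scalings, thresholds, edgeR 4.0.16, DESeq2 1.42.0, the replicate block, each library left out and, added later, a GC correction. Some items are not reported here.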

Additional observations from a re-analysis of the deposited data

Results flagged for a closer look

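The genotype effect differed between Olig2+ and NeuN+ nuclei at 10361 shared peaks, by limma's interaction test. The smallest p-values with the higher effect in Olig2+ nuclei were at 3 start sites. Ripk2, a kinase gene of innate immune signalling, had 726 and 726 in WT and 911 and 928 in SgshKO Olig2+ nuclei, against 741 and 695 in WT and 421 and 375 in SgshKO NeuN+ nuclei (difference on the log2 scale 1.19 ± 0.08, adjusted p = 3.04e-12). Ikbip had 270.2 and 283 in WT and 439.6 and 445 in SgshKO Olig2+ nuclei, against 429.9 and 386 in WT and 224 and 223 in SgshKO NeuN+ nuclei (1.54 ± 0.11, adjusted p = 3.04e-12). Dnpep, an aspartyl aminopeptidase gene, had 1056 and 1079 in WT and 1313 and 1275 in SgshKO Olig2+ nuclei, against 959 and 932 in WT and 597 and 607 in SgshKO NeuN+ nuclei (0.93 ± 0.07, adjusted p = 3.04e-12). Each rose in Olig2+ nuclei and fell in NeuN+ nuclei. Over all shared start-site peaks the median effect was 0.06 in Olig2+ and -0.57 in NeuN+ nuclei. Of those peaks, 55.4% were called lower in NeuN+ nuclei. Peaks held 26.7% and 25.9% of the tags in WT NeuN+ libraries, and 21.5% and 21.2% in SgshKO NeuN+ libraries. After the GC correction the Olig2+ changes were 0.39 at Ikbip and 0.15 at Dnpep, against 0.68 and 0.28 before it. These calls were kept.

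With the lower effect in Olig2+ nuclei, the smallest p-values were at 3 distal peaks. The peak nearest to the amino acid transporter gene Slc38a4, at 86793 bp, had 123 and 146 in WT and 46.1 and 49.9 in SgshKO Olig2+ nuclei, against 24.4 and 28.2 in WT and 55.8 and 54.0 in SgshKO NeuN+ nuclei (-2.50 ± 0.23, adjusted p = 4.91e-10). The peak nearest to Bend5, at -87704 bp, had 73.7 and 96.7 in WT and 24.0 and 23.3 in SgshKO Olig2+ nuclei, against 24.4 and 30.5 in WT and 58.6 and 51.4 in SgshKO NeuN+ nuclei (-2.78 ± 0.27, adjusted p = 1.18e-09). The peak at -9581 bp from the long non-coding RNA gene Malat1 had 329.9 and 384 in WT and 127 and 126 in SgshKO Olig2+ nuclei, against 137 and 115 in WT and 128 and 112 in SgshKO NeuN+ nuclei (-1.42 ± 0.15, adjusted p = 1.00e-08). The Slc38a4 and Bend5 peaks fell in Olig2+ and rose in NeuN+ nuclei, and the Malat1 peak fell in Olig2+ nuclei and was not called in NeuN+ nuclei.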

How the results depend on the processing

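Over the alternatives, the number of called Olig2+ peaks was 3589 in DESeq2, 7428 at an adjusted p under 0.01 and, with a library left out, 6090 to 15596. Elsewhere it stayed within 1.5 times of 16370. The share of called peaks that were higher was 42.6% without the lowest 25% of peaks, 44.7% after in-peak scaling, 53.1% with median-of-ratios factors, 53.2% with quantiles equalised, 53.6% in edgeR, 60.9% in DESeq2 and 34.7% to 52.7% with a library left out. The start-site gap was 0.13 to 0.21, and it was not computed after the GC correction. The sorts differed at 5544 peaks after quantile normalization and at 7812 to 10189 with a library left out. With the replicate number as a block, 17632 peaks were called, 41.3% of them higher, and 10755 differed between sorts, and no named call changed under the block.

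Of 1749 alternative values of 116 named peaks, 1715 kept direction and side of the threshold, 10 lost a call, 9 gained a call and 15 changed sign. All sign changes were at peaks not called. With a library left out, the change ranged from -0.16 to 0.0086 at Sox10, -0.014 to 0.065 at Myrf, -0.18 to 0.0047 at Cldn11, -0.23 to 0.064 at Opalin, -0.24 to 0.038 at Mitf and -0.19 to 0.10 at Il33. Myrf was at -0.0060 after quantile normalization, and Opalin at 0.015 and Tfeb at -0.037 after the GC correction. Il33 was at 0.017 (median of ratios), 0.028 (quantile), 0.0098 (edgeR), 0.011 (DESeq2) and 0.16 (GC correction). The cause was not tested. The median peak had 22 to 30 reads per library. How often changes of 2-fold were missed here is not known. The simulation changed far fewer peaks than were called in these data, so its recovery does not carry over to them. Among called peaks the median change was below 2-fold in both directions. A missing call is not evidence of no change.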

Other observations

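Peaks of 3 further lists were counted outside the comparisons above. Among all peaks 8.17% were higher and 11.7% lower. Immediate-early genes, which respond to cell stimulation, had 24 of 205 peaks higher (11.7%) and 14 lower (6.83%). A peak at -1928 bp from Nr4a3 rose from 253 and 246 to 343 and 363 (0.50 ± 0.08, adjusted p = 2.94e-05). One at -22496 bp from Dusp1 fell from 53.9 and 54.7 to 19.7 and 20.6 (-1.39 ± 0.20, adjusted p = 9.28e-06). Of 16 start-site peaks with a promoter sequence, 4 were higher and 1 lower, and after the GC correction 1 was higher and 2 lower. Genes of NRF2 and iron handling had 9 of 139 higher (6.47%) and 20 lower (14.4%). The ferritin gene Fth1 had a peak at -1787 bp that fell from 114 and 115 to 42.4 and 55.2 (-1.22 ± 0.15, adjusted p = 6.67e-07). Interferon and antigen presentation genes had 5 of 36 higher (13.9%) and 4 lower (11.1%).

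Among genes used by most cells, those of oxidative phosphorylation stayed near the shares of all peaks and those of cytosolic ribosomal proteins lay below them. Cytosolic ribosomal protein genes had 16 of 298 peaks higher (5.37%) and 30 lower (10.1%), and oxidative phosphorylation genes had 27 of 317 higher (8.52%) and 37 lower (11.7%). At start sites 8.11% and 7.48% of their peaks rose, against 12.7% of all start-site peaks, and 7.21% and 5.61% fell, against 7.56%. Lipid and metabolic enzymes of mature oligodendrocytes had 12 of 294 higher (4.08%, against 8.17% of all peaks) and 39 lower (13.3%, against 11.7%). The strongest decrease among these lay at -8747 bp from Ptgds, which encodes prostaglandin D synthase, from 330.4 and 301 to 139 and 118 (-1.29 ± 0.10, adjusted p = 6.30e-11). Disease-associated microglia genes had 11 of 90 peaks higher (12.2%) and 8 lower (8.89%). An intronic peak of Csf1, which encodes the growth factor of microglia, fell from 71.6 and 66.5 to 23.4 and 25.3 (-1.47 ± 0.18, adjusted p = 9.45e-07).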
